A study of Mus musculus with 10 samples.

Results

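S100 proteins are small calcium-binding proteins, and 10 of their genes were followed here across 5 normal mouse lungs and 5 lung squamous cell carcinomas (SCC). The 10 genes were S100a8 and S100a9, which are known from myeloid cells, S100a14, S100a16 and S100a3, known from epithelia, S100a6, S100a10 and S100a11, which many cell types express, S100a4, known from fibroblasts and leukocytes, and S100a1, known from muscle. They were chosen by name, with earlier results of these data known. They are 10 of the 19096 genes that the arrays could be matched to, and each had 1 probe. That probe was well above background on all 10 arrays for each of the 10 genes.

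The WT group was 5 whole lungs of Lkb1f/f mice, labelled wild type, which carry the floxed alleles as the tumor mice do. The SCC group was 5 lung tumors of CCSPiCreLkb1f/f mice, in which the promoter of the club cell secretory protein drives Cre and so removes Lkb1 in airway epithelium. Lkb1 encodes a serine/threonine kinase and is a tumor suppressor. All mice had a background labelled B6.129, were 13 months old and received no treatment. Whole tissue was used, so the RNA of a tumor includes that of its stroma, vessels, leukocytes and any lung left around it. In such samples fewer cells of a type and less RNA per cell cannot be told apart. No probe was paired with the floxed gene, which is not analysed here.

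An S100 protein folds into a pair of EF-hand motifs, calcium-binding loops held between helices, and usually works as a dimer. Calcium opens a binding face for partner proteins such as annexins, myosin or ion channels. S100a8 and S100a9 form calprotectin, which neutrophils and monocytes carry in large amounts and which, once released, binds zinc and manganese and signals through TLR4 and the receptor RAGE. Most S100 genes lie together on mouse chromosome 3 in and beside the epidermal differentiation complex, the gene cluster that encodes the cornified envelope of squamous epithelium.

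Promoter windows of the myeloid pair and of S100a11 are shown because these 3 genes carry the contrast described below, between levels that were low on 1 tumor array and levels that were high on all 5. Each window is the 250 bases before the annotated start (RefSeq, GRCm38.p6), read 5′ to 3′ on the gene's strand. Capitals mark matches, on either strand, to the letters TGANTCA for AP-1, TTGCNNAA for C/EBP, GAGGAAGT for PU.1 and TATAAA for a TATA box.
S100a8, chr3:90668821-90669070, plus strand: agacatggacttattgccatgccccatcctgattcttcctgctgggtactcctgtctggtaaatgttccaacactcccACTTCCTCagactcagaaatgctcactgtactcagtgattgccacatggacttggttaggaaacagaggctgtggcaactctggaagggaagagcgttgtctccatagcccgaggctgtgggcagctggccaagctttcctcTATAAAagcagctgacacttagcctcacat
S100a9, chr3:90695722-90695971, minus strand: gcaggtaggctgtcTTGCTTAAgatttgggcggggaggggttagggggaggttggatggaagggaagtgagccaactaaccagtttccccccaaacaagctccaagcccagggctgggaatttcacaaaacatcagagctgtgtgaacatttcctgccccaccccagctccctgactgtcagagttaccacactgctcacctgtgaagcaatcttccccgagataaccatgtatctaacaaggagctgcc
S100a11, chr3:93520246-93520495, plus strand: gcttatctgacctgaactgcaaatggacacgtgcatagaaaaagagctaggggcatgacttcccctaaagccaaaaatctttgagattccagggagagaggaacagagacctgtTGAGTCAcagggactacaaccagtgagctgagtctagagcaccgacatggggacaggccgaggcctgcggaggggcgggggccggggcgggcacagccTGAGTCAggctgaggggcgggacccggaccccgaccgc
The S100a8 window held the PU.1 letters 172 bases and the TATA letters 30 bases before the start. The S100a9 window held the C/EBP letters 236 bases before the start. The S100a11 window held the AP-1 letters at 136 and again at 38 bases before the start. Of 32851 mouse windows of this length, 6.75% held the AP-1 letters, 9.56% the C/EBP letters, 2.44% the PU.1 letters and 12.4% the TATA letters. The STAT letters TTCNNNGAA (7.02% of windows) and an NF-kB motif (0.356%) were found in none of the 12 windows of the 8 genes that were matched, and a loose p63 motif, present in 63.5% of all windows, was found in those of S100a3, S100a4, S100a8, S100a11 and S100a16. Among the other matched genes, S100a16 held the AP-1 letters at 192 bases, and S100a4 and S100a3 held TATA letters at 31 and 52 bases before a start. S100a14 and S100a10 were not matched to a window.

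Some arrays stood apart before any S100 gene was considered. Between 71.0% and 74.4% of probes were well above background on 9 arrays, and 90.2% on SCC replicate 5. Over all tested probes, correlations between arrays were 0.986 to 0.993 among WT and 0.906 to 0.990 among SCC. The mean log2 level of 15 squamous epithelium markers was 5.31 to 5.73 on the WT arrays, 13.59 to 13.90 on 4 SCC arrays and 10.04 on SCC replicate 2, so that the tissue label held on all 5 tumors and least on that one. All 15 rose and 14 were called, 7 of the 15 having passed the brightness filter through the SCC arrays alone. Krt5 rose by 11.35 and Krt14 by 10.40, both above background on all 10 arrays. The desmosomal gene Pkp1 was above background on no WT array and at least 2075-fold higher in SCC, and the keratin gene Krt6a, likewise dim on all WT arrays, was at least 1498-fold higher. These bounds were 3456 and 3135 without SCC replicate 2. A single slide held both groups, namely WT replicate 5 together with SCC replicates 1, 2 and 3. The other lungs shared a slide of their own, as did the other tumors, so a difference within a slide always rests on 1 WT array.

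All levels below are log2 normalized intensities, and all differences are SCC minus WT on that scale with limma's standard error (SE) and adjusted p. A gene is said to have risen or fallen if its adjusted p was below 0.05, and it is called if the difference was also at least 2-fold. Of the 10 S100 genes, 4 were called higher in SCC and none lower, where 11.6% of the 15586 genes tested were called higher, 13.4% lower and 24.9% in either direction. Those 4 were S100a14, S100a8, S100a11 and S100a3. Adjusted p alone was passed by 8 of the 10, 7 upward and 1 downward, beside 53.9% of all genes. The groups did not overlap for 5 of the 10, beside 41.4% of all genes. Over all 30374 probes tested, 22.9% were called, 9.92% higher and 13% lower. The shares over all genes are the background for every list count in this report. The median difference was 0.97 over the 10 genes and −0.04 over all genes tested. Because the 10 genes were chosen with earlier results known, these comparisons are a description only. The 4 other S100 genes tested had a median difference of 0.17.

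**Figure D1:**
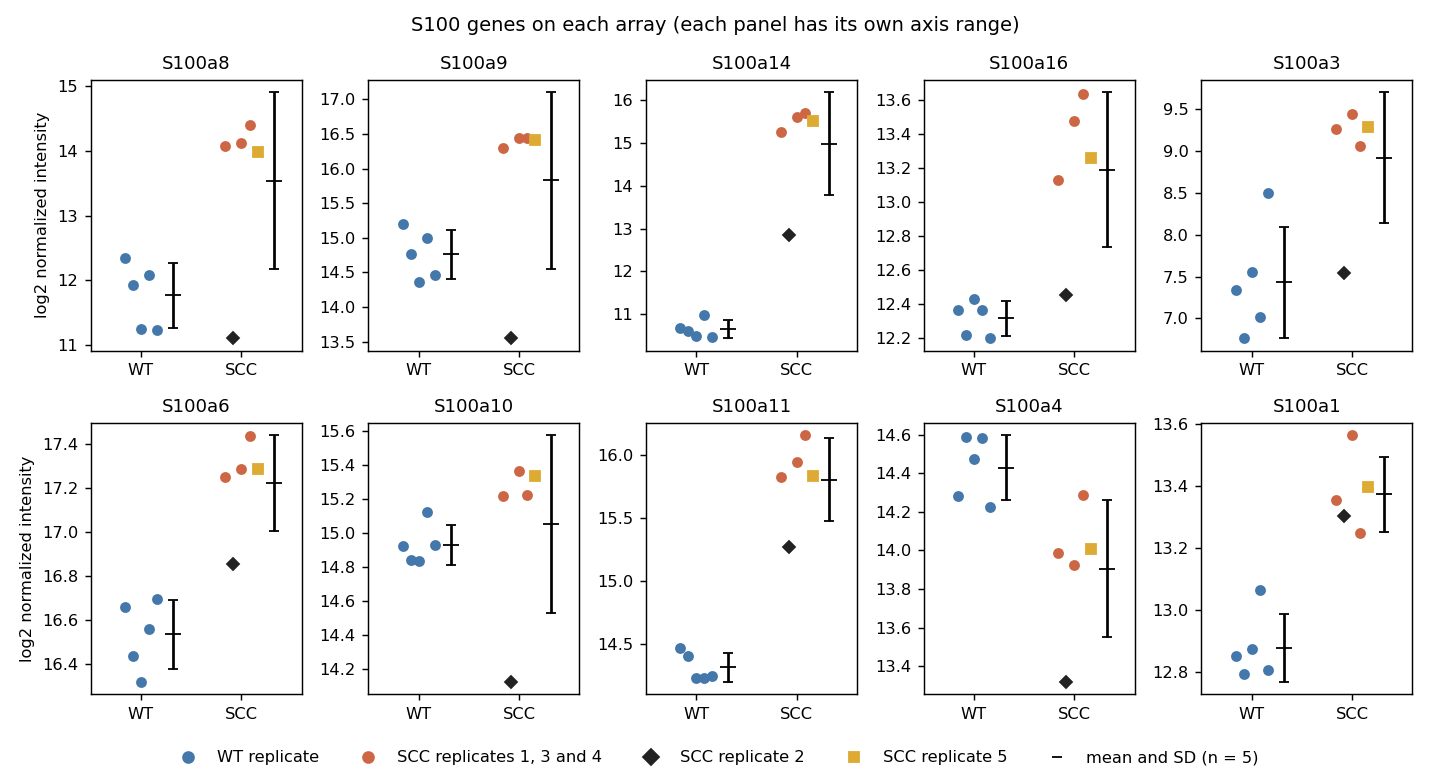
Log2 normalized intensity of the 10 S100 genes on each array (vertical axis, one range per panel), with WT and SCC side by side and the mean and SD of 5 arrays as bars. SCC replicate 2 (black diamond) lies below every WT array for S100a8, S100a9, S100a10 and S100a4, and above every WT array for S100a14, S100a16, S100a11, S100a6 and S100a1.

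The myeloid pair was higher on 4 of the 5 tumors and low on the fifth. S100a8, the smaller calprotectin subunit, was at 12.35, 11.93, 11.24, 12.09 and 11.23 on WT replicates 1 to 5. It was at 14.08, 11.10, 14.12, 14.40 and 13.98 on SCC replicates 1 to 5. The groups overlapped through SCC replicate 2 alone, which was below all 5 WT arrays, while the other 4 tumors were above all of them. The difference was 1.77 (SE 0.59, 95% confidence interval 0.44 to 3.10, 3.41-fold, adjusted p 0.0321, exact permutation p 0.0476), and S100a8 was called. Without SCC replicate 2 it was 2.38 (adjusted p 4.75e-05). The call was lost in 7 of the 10 fits that each left out 1 array, the highest adjusted p being 0.0726 without SCC replicate 4, and with the slide as a block (1.87, adjusted p 0.284).

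S100a9, the larger calprotectin subunit, was at 15.21, 14.77, 14.37, 14.99 and 14.47 on WT replicates 1 to 5. It was at 16.30, 13.55, 16.45, 16.44 and 16.41 on SCC replicates 1 to 5. Its order of arrays was like that of S100a8, with 4 tumors above every lung and SCC replicate 2 below every lung. The difference was 1.07 (SE 0.54, 95% confidence interval −0.14 to 2.27, adjusted p 0.126, exact permutation p 0.0952), which did not pass. Without SCC replicate 2 it was 1.64 with an adjusted p of 4.88e-05, a called difference, and within the shared slide it was 0.96. Within the WT group both genes were highest on replicate 1, then on replicate 4 and then on replicate 2.

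Of the neutrophil markers 4 of 9 passed, all higher in SCC, and the macrophage markers went both ways. Of 9 neutrophil markers tested (11 of 12 had a probe, none for Ly6g), 4 were called higher (11.6% over all genes) and none lower. They were Il1r2, a decoy receptor for interleukin-1 (3.88, adjusted p 0.000973), the chemokine receptor Cxcr2 (1.94, adjusted p 0.00508), the collagenase Mmp8 (1.78, adjusted p 0.00434) and the G-CSF receptor Csf3r (1.07, adjusted p 0.0484). Csf3r no longer passed in 9 of the 10 fits that left out 1 array (highest adjusted p 0.105). The other 5 did not pass, namely Mmp9 (1.01, adjusted p 0.190), Mpo (0.86, adjusted p 0.0527), Trem1 (0.74, adjusted p 0.163), Camp (0.50, adjusted p 0.485) and Retnlg (0.40, adjusted p 0.564). A dimmer Trem1 probe was at 1.52 and was called (adjusted p 0.0190). The mean level of the neutrophil list was 6.48 to 7.49 on the WT arrays, 8.27 to 8.86 on 4 SCC arrays and 6.60 on SCC replicate 2. Ngp and Elane, granule genes of immature neutrophils, were too dim to be tested, Ngp being above background on 2 WT arrays and 1 SCC array and Elane on 1 SCC array. Of 10 macrophage markers, 3 rose and 3 fell, with a median difference of 0.21 over the list. The lysosomal glycoprotein Cd68 rose by 1.95 and the complement gene C1qa by 1.34 (adjusted p 0.00295 and 0.000308), and these were the only ones called. The mannose receptor Mrc1 rose by 0.65 (adjusted p 0.0419), which did not pass in 8 of the 10 fits without 1 array (highest adjusted p 0.0938). The chemokine receptor Ccr2 fell by 0.90 (adjusted p 0.000421), the alveolar macrophage receptor Marco by 0.75 (adjusted p 0.0199) and the growth factor receptor Csf1r by 0.50 (adjusted p 0.00517). Dimmer probes of Csf1r were at −0.26 and 0.49 and did not pass (adjusted p 0.231 and 0.461). The mean of that list was 12.40 to 12.78 on the WT arrays, 13.06 to 13.16 on 4 SCC arrays and 12.17 on SCC replicate 2. None of the neutrophil or macrophage markers that rose or fell with their brightest probe passed with the slide as a block. Il1r2 (adjusted p 0.0636) and C1qa (adjusted p 0.0618) were among them. The part of either cell type, or of the squamous cells, in the S100a8 and S100a9 levels was not tested.

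All 3 epithelial genes rose, S100a14 by the most, and SCC replicate 2 was the lowest tumor for each of them. S100a14, a membrane-associated protein of epithelial cells, was at 10.68, 10.61, 10.49, 10.98 and 10.46 on WT replicates 1 to 5. It was at 15.27, 12.84, 15.60, 15.70 and 15.51 on SCC replicates 1 to 5. No tumor overlapped the lungs, and SCC replicate 2 lay between the lungs and the other tumors. The difference was 4.34 (SE 0.50, 95% confidence interval 3.22 to 5.46, 20.3-fold, adjusted p 0.000102, exact permutation p 0.00794), and 98.7% of all genes tested had a lower difference. S100a14 was called under each alternative run, including the slide as a block (4.11, adjusted p 0.0267).

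S100a16, a close relative found in many epithelia, was at 12.36, 12.22, 12.43, 12.37 and 12.20 on WT replicates 1 to 5. It was at 13.13, 12.46, 13.48, 13.63 and 13.26 on SCC replicates 1 to 5. The groups were separate by a narrow margin, since SCC replicate 2 exceeded the highest lung by less than the spread of the lungs. S100a16 rose by 0.87 (SE 0.20, adjusted p 0.00523, exact permutation p 0.00794), a 1.83-fold difference that was not called. Without SCC replicate 2 it was 1.06 and called. With the slide as a block it was 0.82 (adjusted p 0.165).

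S100a3, best known from the cuticle of the hair shaft, was at 7.34, 6.76, 7.55, 7.02 and 8.49 on WT replicates 1 to 5. It was at 9.27, 7.54, 9.44, 9.07 and 9.29 on SCC replicates 1 to 5. SCC replicate 2 was within the range of the lungs, and WT replicate 5 was the highest lung by a wide margin. The difference was 1.49 (SE 0.42, 2.81-fold, adjusted p 0.0152, exact permutation p 0.0238), and S100a3 was called. WT replicate 5 is the only lung on the slide that also holds tumors, and within that slide the difference was 0.26 (adjusted p 0.839 with the slide as a block).

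Side by side, on SCC replicate 2 the level relative to the WT mean was −0.66 for S100a8 and −1.21 for S100a9, and 2.20 for S100a14, 0.14 for S100a16 and 0.11 for S100a3. On the other 4 tumors the same quantity was 2.21 to 2.63 for S100a8, 1.54 to 1.68 for S100a9 and 4.62 to 5.06 for S100a14. It was 0.81 to 1.32 for S100a16 and 1.63 to 2.01 for S100a3 on those tumors. The squamous markers were at 4.44 on SCC replicate 2 and 7.99 to 8.30 on the others. S100a14 and the mean of the squamous list therefore kept part of their excess over the lungs on that array. S100a16 and S100a3 kept little of theirs, and the calprotectin genes had none there. A lost excess was not particular to the calprotectin genes, since S100a7a (3.09) and the squamous marker Sprr1b (1.86) were within the range of the lungs there. This is a description of 1 tumor, and what set it apart was not tested.

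**Figure D2:**
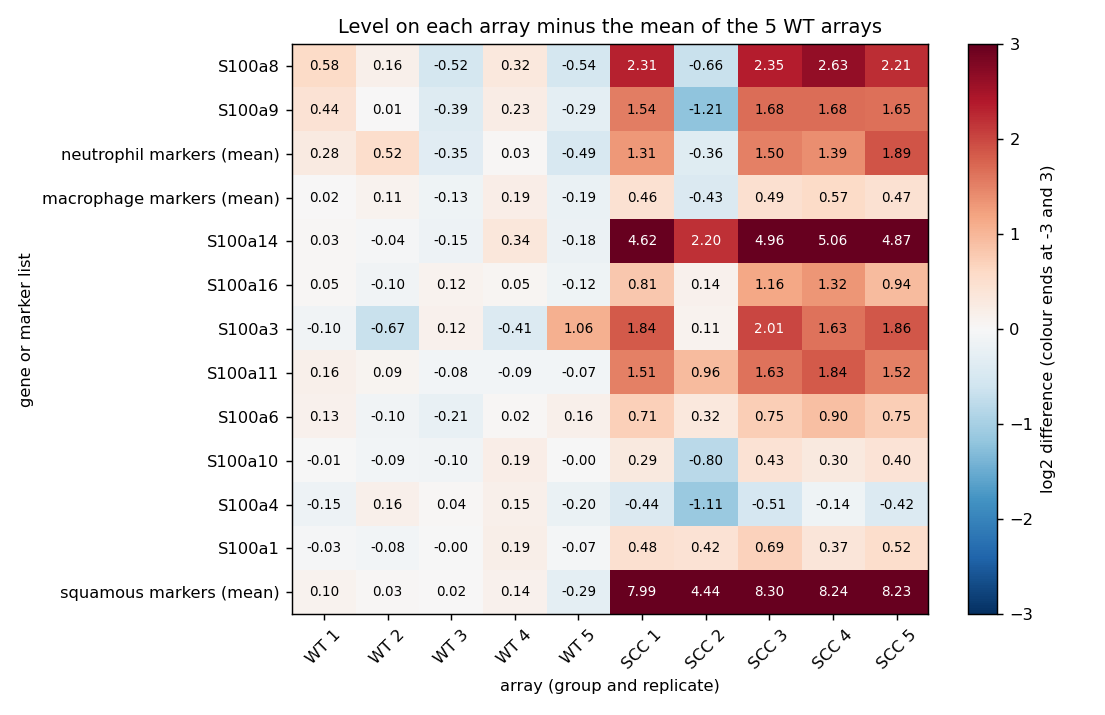
Level on each array minus the mean of the 5 WT arrays (log2, colour and printed value), for the 10 S100 genes and for the mean of the neutrophil, macrophage and squamous markers. On SCC replicate 2 the calprotectin genes and both leukocyte lists are below 0, and S100a14, S100a11 and the squamous markers are at 2.20, 0.96 and 4.44. S100a16 and S100a3 are at 0.14 and 0.11 there.

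The widely expressed genes divided into S100a11, which was higher on every tumor than on any lung, S100a6, which rose less, and S100a10, which did not pass the test. S100a11, an annexin A1 partner also found in the cornified envelope, was at 14.47, 14.40, 14.24, 14.23 and 14.25 on WT replicates 1 to 5. It was at 15.83, 15.28, 15.95, 16.16 and 15.83 on SCC replicates 1 to 5. Even SCC replicate 2, its lowest tumor, was well above the highest lung. The difference was 1.49 (SE 0.15, 95% confidence interval 1.14 to 1.83, 2.81-fold, adjusted p 5.77e-05, exact permutation p 0.00794). S100a11 had the same fold as S100a3 with a much smaller SE, and it was called under every alternative run, with an adjusted p of 0.0189 with the slide as a block.

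S100a6, or calcyclin, which binds the ubiquitin ligase adaptor Cacybp, was at 16.66, 16.44, 16.32, 16.56 and 16.70 on WT replicates 1 to 5. It was at 17.25, 16.86, 17.28, 17.44 and 17.28 on SCC replicates 1 to 5, with no overlap. It rose by 0.69 (SE 0.13, adjusted p 0.00159, exact permutation p 0.00794) and was not called. Within the shared slide the difference was 0.43 (adjusted p 0.234 with the slide as a block).

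S100a10, or p11, which forms a tetramer with annexin A2 at the plasma membrane, was at 14.92, 14.84, 14.83, 15.12 and 14.93 on WT replicates 1 to 5. It was at 15.22, 14.12, 15.36, 15.22 and 15.33 on SCC replicates 1 to 5. Again 4 tumors were above every lung and SCC replicate 2 was below every lung. The difference was 0.12 (SE 0.23, 95% confidence interval −0.38 to 0.63, adjusted p 0.670, exact permutation p 0.706). Without SCC replicate 2 it was 0.36 (adjusted p 0.00469), and within the shared slide it was −0.03.

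S100a4 was the only one of the 10 genes with a lower mean in SCC. Also called metastasin, S100a4 binds non-muscle myosin and marks fibroblasts and some leukocytes. It was at 14.28, 14.59, 14.47, 14.58 and 14.23 on WT replicates 1 to 5. It was at 13.98, 13.32, 13.92, 14.29 and 14.01 on SCC replicates 1 to 5, and only SCC replicate 4 reached the range of the lungs. It fell by 0.52 (SE 0.17, adjusted p 0.0293, exact permutation p 0.0238), less than 2-fold. The fall did not pass after scaling to the 75th percentile (−0.41, adjusted p 0.122) or in 4 of the 10 fits that left out an array.

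Endothelial and T cell markers that passed were lower in the tumors, and fibroblast markers went both ways. Of 7 fibroblast markers 4 fell and 2 rose (median difference −0.83). The growth factor receptor Pdgfra fell by 2.10, the proteoglycan Dcn by 1.34 and Lum by 1.32, all called, and Pdgfrb fell by 0.83. The collagen genes Col1a1 and Col3a1 rose by 0.66 and 0.53 with no overlap of the groups (adjusted p 0.00581 and 0.0062). Of their dimmer probes, those of Col1a1 were at 0.77, which passed, and 0.91, which did not (adjusted p 0.00531 and 0.0540), and that of Col3a1 was at 0.44 and did not (adjusted p 0.346). All 6 endothelial markers were called lower (median −2.42), among them Tek by −2.89 and Kdr by −2.76. Of 6 T cell markers 5 were called lower (median −1.37), among them the receptor chains Cd247 by −2.46 and Cd3g by −1.44. A dimmer tested probe of Cd247 was at −1.06 with overlapping groups and did not pass (adjusted p 0.268), and another, at 0.99, was too dim to be tested. SCC replicate 2, which had the lowest S100a4, had the highest tumor mean for the fibroblast list (13.34, others 12.56 to 13.12) and the endothelial list (12.12, others 10.92 to 11.20). Of the markers named here, Kdr, Cd3g and Col3a1 still passed with the slide as a block. The part of these cells in the S100a4 level was not tested.

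S100a1, which binds the ryanodine receptor and the calcium pump SERCA in heart and skeletal muscle, was at 12.85, 12.79, 12.87, 13.06 and 12.81 on WT replicates 1 to 5. It was at 13.35, 13.30, 13.56, 13.25 and 13.40 on SCC replicates 1 to 5, with no overlap and with SCC replicate 2 among the other tumors. It rose by 0.50 (SE 0.09, adjusted p 0.00172, exact permutation p 0.00794). With the slide as a block it was 0.60 (adjusted p 0.0694). Heart muscle markers went the other way, 7 of 8 being called lower with a median of −2.93 (Myh6 by −4.68, Tnni3 by −3.77, Myl4 by −3.75 and Tnnt2 by −3.37). Their mean level spanned 10.08 to 13.91 on the WT arrays, whereas S100a1 spanned 12.79 to 13.06 there. Of 5 skeletal muscle markers tested, the myosin Myh4 alone was called (−5.26, adjusted p 0.00425). None of these 5 muscle markers passed with the slide as a block. What heart muscle RNA on the WT arrays adds to the S100a1 level was not tested.

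**Figure D3:**
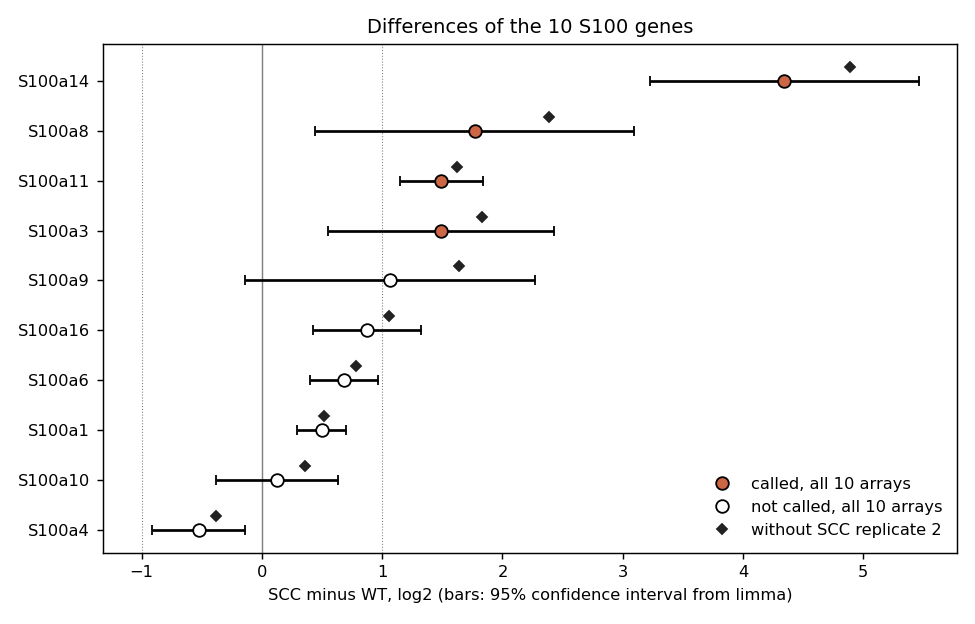
Difference SCC minus WT (log2, horizontal axis) of the 10 S100 genes with its 95% confidence interval from limma over all 10 arrays, and without SCC replicate 2 (diamonds). The interval of S100a9 crosses 0 and that of S100a11, with a larger difference, is narrow. Without SCC replicate 2 every difference that was above 0 is larger.

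Of a list of 7 other mouse S100 genes, 6 had a probe and 4 were tested. S100a2, which is not in that list, lies among the genes of the cluster and had no probe. S100a7a, a relative of human psoriasin made by stressed squamous epithelium, was above background on no WT array, at 2.02 to 3.49 there. It was at 10.42, 3.09, 11.10, 10.83 and 10.60 on SCC replicates 1 to 5. Thus 4 tumors were above background and SCC replicate 2 was not. It passed the brightness filter through the SCC arrays alone, so its adjusted p of 0.00492 is a description only. Without SCC replicate 2 it was at least 104-fold higher in SCC. The fold over all 5 tumors, 36.0, counts SCC replicate 2 at a signal that was not above background, so it is no strict bound. S100a13, an annotated neighbour of S100a1 that exports growth factors lacking a signal peptide, fell by 0.39 with no overlap (adjusted p 0.00192). S100g, the calcium-buffering calbindin, fell by 0.36 (adjusted p 0.0203). S100b, known from glia, differed by 0.70 and did not pass (adjusted p 0.103). S100a5 and S100a7l2 were too dim to be tested. Neither S100a7a nor S100a13 nor S100g passed with the slide as a block.

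Fused S100 genes encode long proteins of the cornified layer that begin with an S100 domain. Of 5 with a probe, 2 were tested and both were called higher, Rptn having passed the brightness filter through the SCC arrays alone. Tchh, or trichohyalin, was 9.02 to 9.33 on the WT arrays and 10.03 to 10.65 on the SCC arrays, a rise of 1.14 (adjusted p 7.91e-05). Rptn, or repetin, rose by 3.27 (adjusted p 0.00607), from 3.35 to 5.60 on the WT arrays, where 3 were above background, to 7.90, 4.93, 8.59, 9.34 and 8.30 on SCC replicates 1 to 5. Flg2, Hrnr and Tchhl1 were too dim to be tested. Tchh passed with the slide as a block and Rptn did not.

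Along chromosome 3, the 10 genes frame the genes of the epidermal differentiation complex. RefSeq gene order gave 70 protein-coding genes from S100a1 to S100a10, with 8 of the 10 genes in a run from S100a1 to S100a9 and S100a11 and S100a10 at the far end. Of the other 60 genes, 44 had a probe and 35 were tested. Of these 35, 21 passed the brightness filter through the SCC arrays alone, and all 21 were called higher, which is a description only, since a gene that passes in this way is bright in SCC and dim in WT by selection. Of the 14 that were above background on at least 4 WT arrays, 8 were called higher (11.6% over all genes), none lower and 6 neither way. The 6 were S100a13, Sprr2a1, Sprr4, Lce1g, Lce1l and Lce1m. Named after their values were seen, the 8 included loricrin (Lor, 4.42) and Sprr1a (8.31), both of the cornified envelope, of which Sprr1a still passed with the slide as a block. The Sprr2 and Lce1 genes are near-identical copies, so probes may share their targets and these calls are not independent. S100a4 and S100a13, both lower in SCC, lie in the same stretch.

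**Figure D4:**
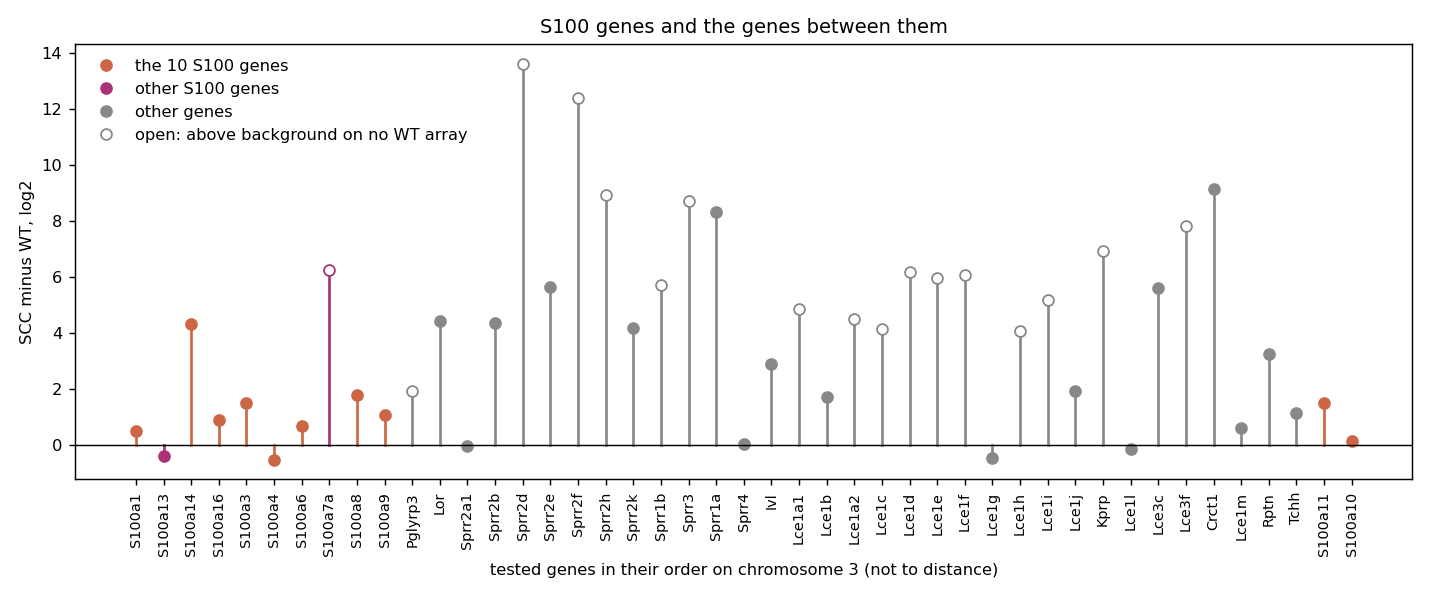
Difference SCC minus WT (log2, vertical axis) of the tested genes from S100a1 to S100a10 in their order on chromosome 3 (horizontal axis, not to distance). Orange points are the 10 S100 genes and open points are genes above background on no WT array, whose fitted difference is no measured fold. The S100 genes lie between −0.52 and 4.34, and Sprr1a, above background on all 10 arrays, is at 8.31.

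Receptors and adaptors for secreted S100 proteins did not move in 1 direction. Of 10 measured, 1 was called higher and 1 lower, beside 24.9% of all genes called in either direction. Adjusted p alone was passed by 8, beside 53.9% of all genes. Cd14, the co-receptor that hands ligands to TLR4, was 11.21 to 11.59 on the WT arrays and 13.57, 14.52, 13.82, 13.97 and 13.97 on SCC replicates 1 to 5. It rose by 2.56 (SE 0.17, adjusted p 5.35e-06), and SCC replicate 2, lowest for S100a8 and S100a9, was here the highest tumor. Ager, which encodes RAGE, was 14.64 to 14.93 on the WT arrays and 12.09 to 13.13 on the SCC arrays. It fell by 2.21 (SE 0.17, adjusted p 1.27e-05). RAGE is abundant in alveolar type 1 cells of normal lung, and among 9 lung epithelium markers the type 1 gene Hopx and the club cell gene Scgb1a1 were called lower (−1.31 and −1.33) and the pan-epithelial Epcam higher (1.74). Another type 1 gene of that list, the water channel Aqp5, rose by 0.64 (adjusted p 0.0233), a pass that was lost in 4 of the 10 fits that left out 1 array (highest adjusted p 0.0594), so that the list did not move one way (2 rose and 4 fell). Hopx and Epcam passed with the slide as a block, and Scgb1a1 and Aqp5 did not. The part of these cells in the Ager level was not tested.

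Smaller rises were found for the TLR4 adaptor Myd88 (0.78, adjusted p 0.000128), the TLR4 co-receptor Ly96 (0.71, adjusted p 0.000194) and Bsg, or basigin, a receptor for S100a9 (0.57, adjusted p 0.0014). Tlr4 itself rose by 0.45 (adjusted p 0.0422), which did not pass in 9 of the 10 fits that left out 1 array (highest adjusted p 0.0941). The scavenger receptor Cd36 fell by 1.00 (adjusted p 0.000713) and Mcam, another calprotectin receptor, fell by 0.77 (adjusted p 0.00225). Nptn and Alcam did not pass. With the slide as a block Cd14, Ager, Myd88, Ly96 and Bsg still passed, and Tlr4, Cd36 and Mcam did not, Mcam differing by −0.22 within the shared slide.

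Intracellular partners also moved both ways, with 1 of 10 called higher, 2 lower and 7 passing adjusted p alone. Over all genes 24.9% were called in either direction and 53.9% passed adjusted p alone. Anxa1, the annexin that S100a11 binds, was 15.12 to 15.53 on the WT arrays and 17.23, 16.27, 17.48, 17.42 and 17.49 on SCC replicates 1 to 5. It rose by 1.91 (SE 0.23, adjusted p 0.000133), with no overlap. Anxa2, the partner of S100a10, rose by 0.67 (adjusted p 0.0181), and SCC replicate 2 (14.69) was within the range of the lungs. A second, dimmer Anxa2 probe rose by 1.02 and was called (adjusted p 0.00336).

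The other annexins that passed went down, Anxa5 by 0.81 and Anxa6 by 0.81 (adjusted p 9.49e-05 and 0.00016). Ahnak, a giant scaffold that binds the complex of S100a10 and annexin A2, fell by 1.09 (adjusted p 3.91e-05). Cacybp, the partner of S100a6, rose by 0.39 (adjusted p 0.0107). Ryr2, the heart ryanodine receptor that S100a1 binds, fell by 2.27 (adjusted p 0.0099), as heart muscle markers did. Anxa11 and Myh9 did not pass. With the slide as a block Anxa1, Anxa6 and Ahnak still passed, and Anxa2, Anxa5, Cacybp and Ryr2 did not. For the calcium pump gene Atp2a2 the probes disagreed, the brightest at −0.71 (adjusted p 0.151) and another at 1.70 (adjusted p 4.87e-06). A further Atp2a2 probe was at 0.62 and did not pass (adjusted p 0.0963).

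Among cytokines and factors known to induce S100a8 and S100a9, the cytokines tested were called higher and the transcription factors tested were not. Of 10 tested, 5 were called higher (11.6% over all genes) and none lower. Il6 and Csf3 had passed the brightness filter through the SCC arrays alone, so the filter favoured their direction. Il6 rose by 3.67 (adjusted p 0.000147), Il1a by 2.70 (adjusted p 0.0132), Tnf by 1.88 (adjusted p 0.00293) and Il1b by 1.65 (adjusted p 0.0142). Csf3, which encodes G-CSF, was above background on no WT array and on 4 SCC arrays, and was 2.08-fold higher by the bound (adjusted p 0.000189). That fold counts SCC replicate 3 at a signal that was not above background, so it is no strict bound. Il1b had the calprotectin pattern, at 10.32 to 10.82 on the WT arrays, 12.52 to 12.90 on 4 tumors and 10.22 on SCC replicate 2. Il6 was 7.56 on SCC replicate 2, above every lung. Of the 5, Il6 alone still passed with the slide as a block. Cebpa, Cebpb, Cebpd, Spi1 and Stat3 did not pass with their brightest probes, although a second Cebpa probe rose by 0.88 (adjusted p 0.00267). Il17a, Il17c and Il22 were too dim to be tested.

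**Figure D5:**
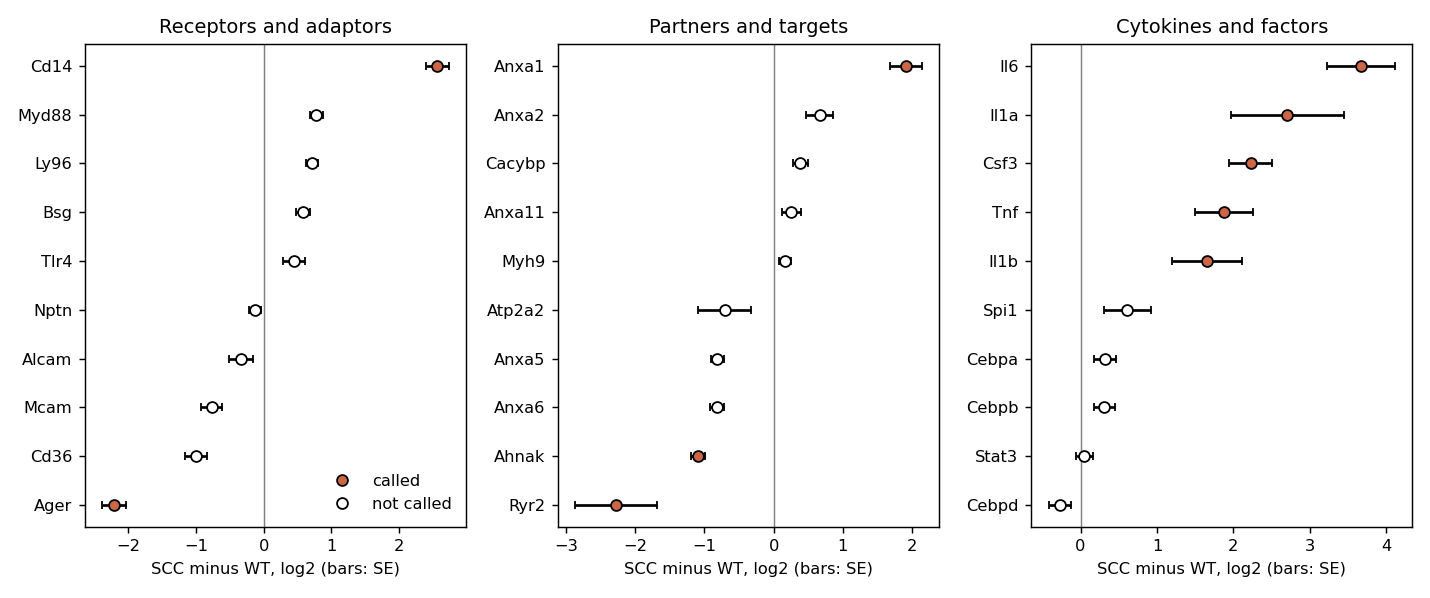
Difference SCC minus WT (log2, horizontal axes) with limma's SE for the receptors and adaptors, the partners and targets, and the tested cytokines and factors of the S100 proteins. Filled points were called. Cd14 at 2.56 and Ager at −2.21 are the only receptors called, and the value of Csf3 is a fitted difference against lungs that were not above background.

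Genes with patterns most like 4 of the S100 genes were ranked by the root mean square difference of log2 levels, centred on the WT mean, over the 10 arrays and 15512 genes. For S100a8 they were Stfa2l1, a stefin-type protease inhibitor (0.285), Il1b (0.288), Itgax, the integrin CD11c (0.296), and Stra6l (0.311). For S100a9 they were Lgi2 (0.166), the thromboxane synthase Tbxas1 (0.174), the noncoding RNA Mirt1 (0.233) and the lipase Lpl (0.244). For S100a14 they were the epithelial oxidase Duox1 (0.153), Tmem40 (0.274), the cadherin Cdh3 (0.302) and the interleukin-1 antagonist Il1rn (0.316). For S100a1, which varied least of these 4, the nearest were the kinase Map2k2 (0.0616), Nudt22 (0.0617), Nrbf2 (0.0690) and Gak (0.0691). Because all genes share the same 10 arrays and the same outlying tumor, this likeness is a description only.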

How the data were processed

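RNA of 5 whole WT lungs and 5 SCCs had been hybridized to single-color Agilent whole-mouse-genome arrays, 1 per sample, and groups were taken from the sample titles. Scans had been read by the authors with Agilent Feature Extraction (version 12 per the submitters' processing notes), and the deposited spot values are background-subtracted intensities on a linear scale. The authors also deposited a table of quantile-normalized log2 values, which correlated with the values used here at 0.9999 or more on every array and served as an alternative.

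Control and outlier-flagged spots were removed, spots of a probe were averaged as log2 intensity, and 41174 probes were quantile-normalized. No probe was saturated, and 113 lacked a value on at least 1 array. A probe was tested if well above background (at least 0.5 of its spots) on 4 of 5 arrays of a group, which left 30374. The comparison used limma (3.58.1, with R 4.3.3), a two-sided eBayes test after lmFit without covariates, and Benjamini-Hochberg adjustment over these probes, and 6954 (22.9%) were called, 9.92% higher and 13% lower. In place of the study's one-way analysis of variance limma was the main test. An exact permutation test (two-sided, 252 splits of the arrays, smallest p 0.00794) was run on single values as well. With arrays, their number limits the precision. The study's methods describe its samples in general as biological replicates, and the labels do not tie each array to a separate mouse, so p-values measure the spread between these samples. On simulated data of 30374 probes, 169 of 200 probes changed by 2 log2 units (84.5%) were recovered with 5 false calls.

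Accessions were paired with symbols through RefSeq genes (GRCm38.p6) for 28223 probes (68.5%), and the brightest probe on average over the 10 arrays stood for its gene. The files give positions on another build, so that table was used for names and gene order, and the promoter windows are RefSeq's. Where no array of a group had a probe above background, the fold is a bound. It is a strict bound only if the probe was above background on every array used of the other group. The dim group was then set, on each array, to its own signal or to the lowest signal of any probe well above background, whichever was higher.

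The S100 genes, the gene lists and the tests were chosen with earlier results of these data known. Named are the 10 S100 genes, list genes called or needed to account for a list, up to 4 called markers per cell type from those with the largest differences, other markers and neighbouring genes chosen after their values were seen, and the 4 genes most like S100a8, S100a9, S100a14 and S100a1. Replicate numbers did not pair the samples, since deviations of same-numbered samples correlated at −0.10 to 0.01. Alternatives covered scaling, background correction, the deposited values, the filter, the threshold, the methods' t-test, slide and replicate blocks, array weights and left-out arrays.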

Additional observations from a re-analysis of the deposited data

Results flagged for a closer look

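In 48 groups of 5 arrays (the 10 S100 genes and the list means, in WT and in SCC), 11 had 1 array whose gap to the nearest other, as a share of the group's range, exceeded the critical value of 0.71. About 1 in 20 groups would show this by chance, and these groups share their arrays. SCC replicate 2 was the array in 10 of the 11, low in 9.

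Among S100 genes it was low for S100a9 (gap 0.948, at 13.55 against 16.30 to 16.45 on the other tumors) and S100a10 (0.884, at 14.12 against 15.22 to 15.36). It was low for S100a8 (0.873, at 11.10 against 13.98 to 14.40) and S100a14 (0.848, at 12.84 against 15.27 to 15.70). For S100a3 the gap was 0.802, at 7.54 against 9.07 to 9.44. S100a1, S100a4, S100a6, S100a11 and S100a16 had no such gap in either group.

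Of the list means it was low for the squamous markers (0.919, at 10.04 against 13.59 to 13.90), the macrophage markers (0.897, at 12.17 against 13.06 to 13.16) and the inducers of S100a8 and S100a9 (0.878, at 7.81 against 8.72 to 8.85). The neutrophil markers were low there too (0.741, at 6.60 against 8.27 to 8.86). The endothelial markers were high on the same array (0.766, at 12.12 against 10.92 to 11.20). The remaining gap was in the lungs, where WT replicate 5 was low for the squamous markers (0.726, at 5.31 against 5.62 to 5.73). The cause of these gaps was not tested.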

How the results depend on the processing

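S100a14 and S100a11 were called under every alternative. The count of 6954 probes called became 4036 with normexp, 14878 with adjusted p alone and 2988 with the slide as a fixed block. Leaving out 1 array gave 6210 to 8095, the most without SCC replicate 2. Of the S100 genes, 4 were called higher, against 7 (and 1 lower) with adjusted p alone. There were 2 with the methods' t-test at an unadjusted p below 0.01 and at least 2-fold. The slide block gave 2, and leaving out 1 array gave 3 to 6 (none lower). Scaling to the 75th percentile moved the median of all tested probes from −0.09 to 0.03, and S100a4 then gave −0.41. No S100 gene changed sign under that scaling.

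With the slide as a fixed block the differences were 0.60 for S100a1, 0.26 for S100a3, −0.48 for S100a4, 0.43 for S100a6, 1.87 for S100a8 and 0.82 for S100a16, none passing, and S100a10 turned to −0.026 and S100b to −0.29. The values within the shared slide were the same, 0.26 for S100a3 and 0.43 for S100a6 among them, and 47 of the other named genes no longer passed. This fit rests on 1 WT array. The slide as a random block (within-slide correlation −0.02) changed no S100 call.

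The replicate block took the pass from S100a8 (1.77, adjusted p 0.0520) and S100a4 (−0.52, adjusted p 0.0670) and left 6571 probes called. The numbers do not pair the samples. S100a8 also missed in the t-test after Benjamini-Hochberg adjustment (1.77, adjusted p 0.0546). Array quality weights brought S100a9 (1.56) and S100a10 (0.31) past the threshold.

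With 1 array left out, differences spanned 1.55 to 2.38 for S100a8, 0.91 to 1.64 for S100a9, 0.043 to 0.36 for S100a10 and −0.62 to −0.38 for S100a4. Without SCC replicate 2, S100a9 and S100a10 passed. An alternative chosen after seeing the data left out SCC replicates 2 and 5 together, which gave 1.63 for S100a9 and 0.34 for S100a10, both passing, and 6 S100 genes called higher. Other probes of the 10 genes could not be tried, since each had 1.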
